A study of Mus musculus with 6 samples.

Results

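Nuclear-encoded oxidative phosphorylation genes are the chromosomal genes for the subunits of respiratory complexes I to V. They were chosen by name: protein-coding symbols of the Nduf (a, b, c, s or v), Sdh, Uqcr, Cox4 to Cox8 and Atp5 series, without pseudogenes and assembly factors. Of 54532 gene rows, 97 matched the names, 12 were left out as pseudogenes or as not protein coding, and 85 remained. These were 37 genes of complex I, 4 of complex II, 8 of complex III, 18 of complex IV and 18 of complex V. A gene was tested where its normalised read count reached 10 in at least 3 libraries. This held for 82 of the 85 (37, 4, 8, 16 and 17 genes of complexes I to V).

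Bulk RNA-seq was run on total RNA of dorsal root ganglia, which hold the cell bodies of sensory neurons next to the spinal cord. The mice were C57BL/6 and 8 weeks old. One group was a conditional knockout of the histone deacetylase gene Hdac2 (Adv-Cre+/hdac2-flop++, called Hdac2 cKO, 3 libraries), in which the Advillin promoter, active in primary sensory neurons, drove Cre recombinase. The other group, called WT (hdac2-flop++, 3 libraries), carried the same floxed Hdac2 alleles without Cre and came from the same litters. The groups therefore differed by Cre as well as by loss of Hdac2, and no group with Cre alone was analysed here. Glia, vessels and other cells in the ganglion were not targeted by the driver, but their RNA was read together with that of the neurons. In bulk RNA, fewer cells of a type and less RNA per cell cannot be told apart. No source used here says whether each library came from 1 mouse, so a p-value here speaks of the spread among libraries, which may be technical.

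Oxidative phosphorylation makes most of a neuron's ATP. Complexes I and II pass electrons from NADH and succinate to ubiquinone, complex III passes them to cytochrome c, and complex IV passes them to oxygen. The proton gradient that builds up drives complex V, the ATP synthase. Large sensory neurons, whose axons run from the spinal cord to the skin and muscle, depend heavily on it. Several subunits of complex IV exist as 2 isoforms: a ubiquitous (liver) form and a form made in heart and skeletal muscle. Cox6a2, Cox7a1 and Cox8b are the muscle forms of Cox6a1, Cox7a2 and Cox8a, and Cox7a1 and Cox8b are also made in brown fat.

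Levels are given as normalised read counts, that is, reads in a gene scaled by the library's size factor. A log2 fold change is the Hdac2 cKO mean minus the WT mean of log2 (value + 1), which understates the change of low genes. Libraries held 18943595 to 42070531 reads in genes, and 24458 to 29181 genes were detected. Hdac2 itself stood at 1715 to 3498 in WT and 371.5 to 535.0 in Hdac2 cKO. Its log2 fold change was -2.47. It did not pass limma's test (adjusted p = 0.927), but DESeq2 called it (adjusted p = 1.8e-08). Neuron markers were abundant in both groups, with the summed level of 20 genes at 540485 to 774330 in WT and 562879 to 729700 in Hdac2 cKO. WT 2 was the shallowest library, and 42.4% of its low counts were even against 60.2 to 64.4% elsewhere. The 37 genes of mitochondrial DNA were listed at 0 in each of the 6 libraries, so the subunits encoded there are not part of any value below.

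WT 3 stood apart from the other libraries, gene by gene and in both directions. It was the highest of the 6 libraries for 33 of the 82 tested genes and the lowest for 29, together 75.6% (71.0% of all genes tested). It lay more than 2-fold from the mean of the other 5 libraries in 32 of 82, 19 above and 13 below, a share of 39.0% (40.1% of all genes tested). The genes departed in opposite directions within a single complex. Complex V held 6 genes more than 2-fold up in WT 3 and 3 more than 2-fold down, and complex I held 8 and 6. The median distance of WT 3 was 0.79 on the log2 scale, against 0.17 to 0.31 in the other 5 libraries. The results are therefore given with and without WT 3.

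**Figure D1:**
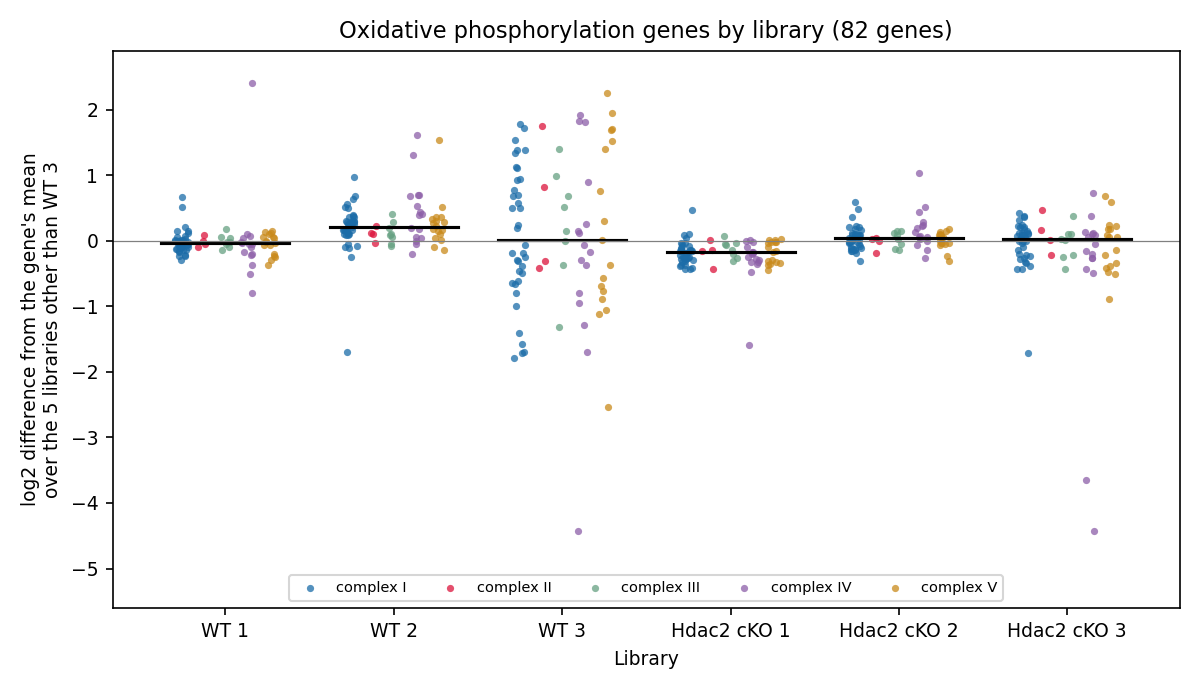
Each point is 1 of 82 tested genes, coloured by complex, and black bars are the medians of all 82. The vertical axis is the log2 difference from the gene's mean over the 5 libraries other than WT 3. The genes spread over a much wider range in WT 3, while its median (0.01) lies near 0. Medians of the other libraries run from -0.17 in Hdac2 cKO 1 to 0.21 in WT 2.

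The proximal promoters of the isoform pairs are shown because these pairs are the contrast between muscle and ubiquitous forms followed below. Each is the 150 bases before the RefSeq transcript start (GRCm38.p6), printed 5′ to 3′ on the gene's strand. Cox6a1 is at chr5:115348959-115349108 (minus strand), Cox7a1 at chr7:30184021-30184170 (plus), Cox7a2 at chr9:79759854-79760003 (minus), Cox8b at chr7:140900447-140900596 (minus) and Cox8a at chr19:7217617-7217766 (minus). Capitals mark matches, on either strand, to 4 motifs. These were NRF1 (GCGCA and GCGC with 1 base between them), the ETS motif CCGGAAG, the CCAAT box and the E-box CANNTG. No window was at hand for Cox6a2.
Cox6a1: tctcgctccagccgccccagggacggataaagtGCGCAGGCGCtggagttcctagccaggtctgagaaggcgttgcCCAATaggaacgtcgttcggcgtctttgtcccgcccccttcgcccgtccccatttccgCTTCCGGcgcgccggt
Cox7a1: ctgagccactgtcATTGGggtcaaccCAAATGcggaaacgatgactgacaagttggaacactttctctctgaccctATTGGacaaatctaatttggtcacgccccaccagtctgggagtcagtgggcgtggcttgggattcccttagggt
Cox7a2: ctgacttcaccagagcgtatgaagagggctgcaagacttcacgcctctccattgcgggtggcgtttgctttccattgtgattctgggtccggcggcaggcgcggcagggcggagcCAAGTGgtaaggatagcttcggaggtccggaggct
Cox8b: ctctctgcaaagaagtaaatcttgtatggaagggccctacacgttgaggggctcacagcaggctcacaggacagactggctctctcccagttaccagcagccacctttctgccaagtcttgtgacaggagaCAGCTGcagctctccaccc
Cox8a: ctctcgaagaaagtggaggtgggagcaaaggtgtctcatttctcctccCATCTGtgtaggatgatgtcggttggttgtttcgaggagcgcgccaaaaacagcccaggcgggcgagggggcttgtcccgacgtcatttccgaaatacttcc

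The Cox6a1 stretch held an NRF1 match 117 bases before the start, a CCAAT box at 74 and an ETS match at 16. NRF1 and ETS-family factors such as GABP are textbook regulators of respiratory chain genes. Cox7a1 held CCAAT boxes at 137 and 74 and an E-box at 124, and the stretches of Cox7a2, Cox8b and Cox8a held an E-box each, at 35, 19 and 102. Over wider windows of 300 bases, from 250 before to 50 after the start, 68 of the 85 genes had a RefSeq sequence. There Cox8a also held 2 ETS matches and 1 CCAAT box, Cox8b held 2 E-boxes and Cox6a1 held 2 NRF1 matches. NRF1 matched in 16 of the 68, or 23.5% (4.78% of all 27025 windows), and ETS in 15, or 22.1% (9.12% of all windows). YY1 (AAGATGGC) matched in 13.2% (2.88% of all) and the ERR motif (AAGGTCA) in 11.8% (4.66% of all). CCAAT matched in 44.1% (37.9% of all), the E-box in 70.6% (72.1% of all) and MEF2, a motif of muscle genes, in 0 of the 68 (0.566% of all). These are letter matches only, and the data hold no measure of binding.

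None of the 82 genes passed the test in limma. Over all genes, limma at an adjusted p under 0.05 called 0 of 18410 genes (0.0%), and 341 genes (1.85%) had an unadjusted p under 0.05. Among the 82 genes this was 1, the muscle isoform Cox6a2. edgeR with TMM or RLE scaling and limma-voom also called 0 of the 82 and 0 of all genes. DESeq2 called 0 of the 82 and 25 of all genes (0.136%).

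The genes were abundant and, outside WT 3, mostly steady. Of the 82, 74 (90.2%) had a mean normalised read count over 1000, against 32.7% of all genes tested. Together the 82 genes took 1.18 to 1.85% of the normalised reads of a library. Their median coefficient of variation over the 5 libraries other than WT 3 was 16.6% (21.7% for all genes tested). The median SD of the log2 values was 0.44 over all 6 libraries and 0.24 without WT 3 (0.48 and 0.31 for all genes tested). These comparisons with all genes were not matched for level. Some genes departed in WT 2, such as Atp5o, at 4333 there against 808.5 to 1458 in the other 5 libraries. Ndufb8 stood at 5140 in WT 2 against 1958 to 2527 elsewhere.

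Log2 fold changes of the 82 genes lay mostly just below 0. The median was -0.18, and 52 of 82 (63.4%) were below 0. Over all genes tested the median was 0.06 and 44.7% were below 0. Without WT 3 the median was -0.17 with 63 of 82 (76.8%) below 0, against -0.01 and 51.4% over all genes tested. The median was -0.05 without WT 2, with 42 of 82 below 0, and -0.29 without WT 1. With a correction for gene length it was -0.10, and that for all genes 0.03.

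Single libraries differed from each other by as much as the groups did. WT 2 was the highest library for 28 of the 82 genes, or 34.1% (16.2% of all genes tested). Hdac2 cKO 1 was the lowest for 34, or 41.5% (12.1% of all), and the highest for none. WT 1 and Hdac2 cKO 2 and 3 had medians near their genes' means, at -0.04, 0.05 and 0.03. Groups did not overlap, with Hdac2 cKO lower, for 3 of the 82 genes (3.91% of all genes tested). The 3 were Ndufa4l2, Ndufs8 and Ndufv1, all counted in complex I. No gene was higher in all 3 Hdac2 cKO libraries (4.63% of all genes tested). Without WT 3 the lower ones were 9 of 82 (9.63% of all) and the higher ones 0 of 82 (9.22% of all).

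**Figure D2:**
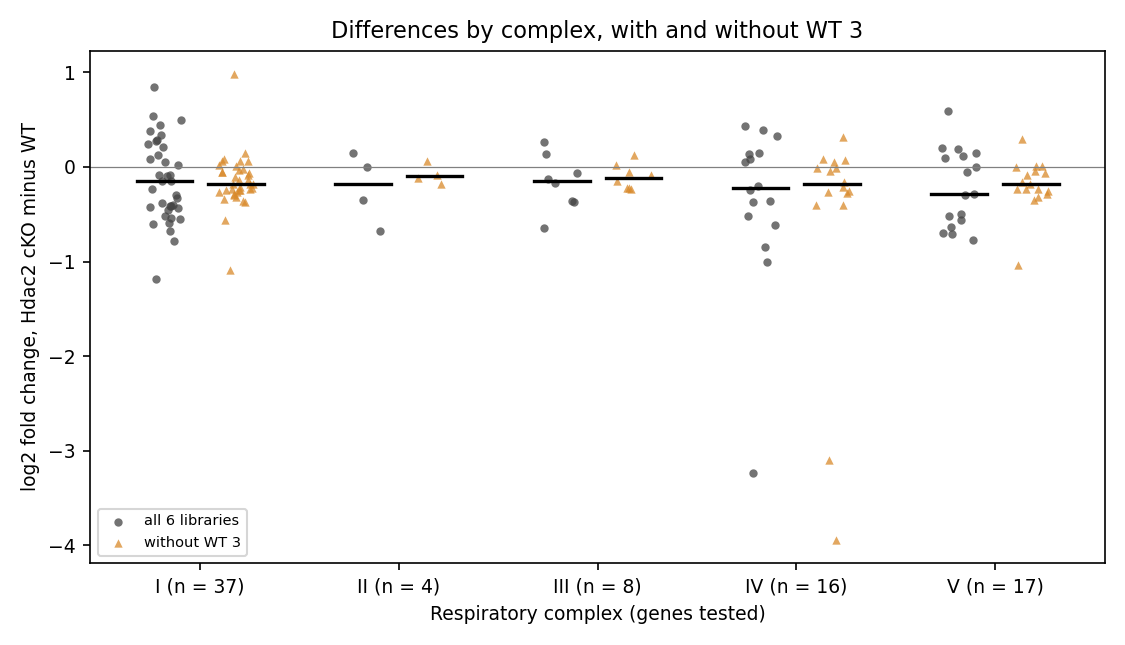
Log2 fold changes (Hdac2 cKO minus WT) of the tested genes of complexes I to V are shown over all 6 libraries (circles) and without WT 3 (triangles), with black bars at the medians. Medians lie between -0.28 and -0.10 in all complexes, and without WT 3 the genes draw closer together. Cox6a2 and, without WT 3, Cox8b lie far below the others.

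The 5 complexes had medians close to each other. Over all 6 libraries these were -0.15 for complex I (23 of 37 genes below 0), -0.17 for complex II (3 of 4), -0.15 for complex III (6 of 8), -0.22 for complex IV (9 of 16) and -0.28 for complex V (11 of 17). Without WT 3 they were -0.18, -0.10, -0.12, -0.18 and -0.18. Without WT 2, complexes IV and V stood at 0.06 and 0.003. The largest difference between complex medians was smaller than the range within every complex.

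Summed over its genes, each complex was highest in WT 3 and lowest in Hdac2 cKO 1. Complex I summed to 106826, 127091 and 140988 in WT 1, 2 and 3 and to 96851, 111423 and 113827 in Hdac2 cKO 1, 2 and 3. Complex IV summed to 75807, 93648 and 145145 in WT and to 68625, 81067 and 80284 in Hdac2 cKO. Complex V summed to 126130, 141942 and 192346 in WT and to 116621, 126063 and 125061 in Hdac2 cKO. The groups overlapped for complexes I and IV, while the complex V sums did not overlap but left almost no gap between WT 1 and Hdac2 cKO 2. Complexes II and III overlapped too, at 21468 to 29667 in WT and 19517 to 21739 in Hdac2 cKO for complex II, and 33600 to 43500 and 31037 to 34318 for complex III. Within same-numbered libraries, the sum of every complex was lower in Hdac2 cKO in 3 of 3 pairs, a direction that 3 pairs cannot carry past the threshold in an exact sign-flip test (smallest p = 0.25).

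Complex I takes electrons from NADH through the flavin and iron-sulfur subunits. Ndufv1 (ENSMUSG00000037916, mm10 chromosome 19, 4007384 to 4012806, minus strand) binds NADH and the flavin. It stood at 4622, 5469 and 7333 in WT 1, 2 and 3, against 4011, 4316 and 4582 in the Hdac2 cKO libraries in the same order. All 3 Hdac2 cKO libraries were below all WT libraries, though Hdac2 cKO 3 and WT 1 nearly touched. Its log2 fold change was -0.41 (SE 0.22, adjusted p = 0.927 in limma) and -0.23 without WT 3. Ndufs8, an iron-sulfur subunit named after its values were seen, stood at 2955, 2844 and 2989 in WT against 2278, 2509 and 2202 in Hdac2 cKO. Here WT 3 lay with the other WT libraries, and the gap between the groups was wider than the spread within either. On the log2 scale Ndufs8 differed by -0.33 (SE 0.18, adjusted p = 0.927 in limma) and by -0.32 without WT 3.

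Ndufs1 and Ndufs7, core iron-sulfur subunits of complex I, overlapped between the groups. The log2 fold changes were 0.21 (SE 0.20) for Ndufs1, the largest of these subunits, and -0.54 (SE 0.36) for Ndufs7. Without WT 3 these were 0.06 and -0.21. Ndufs5, an accessory subunit, had the highest value in the complex, 0.85 (SE 0.52). It stood at 3356, 722.2 and 2050 in WT and 3253, 3528 and 2543 in Hdac2 cKO. WT 2 was far below the other 5 libraries, and the value was 0.23 without it, against 0.98 without WT 3.

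Ndufa4l2 is a low-level, hypoxia-induced relative of Ndufa4, a protein named for complex I that is also found in complex IV. Ndufa4l2 (ENSMUSG00000040280, mm10 chromosome 10, 127514967 to 127517154, plus strand) was read at 80.3, 78.9 and 97.1 in WT and 47.5, 70.8 and 14.7 in Hdac2 cKO. The groups did not overlap, and Hdac2 cKO 3 was far below the rest. On the log2 scale it differed by -1.18 (SE 0.62, adjusted p = 0.927 in limma), by -1.09 without WT 3 and by -0.54 without Hdac2 cKO 3. Ndufa4 was the most abundant gene of complex I per kilobase of exon (6926 ± 1470, SD over 6 libraries). For it the log2 fold change came to 0.25 (SE 0.28), or -0.03 without WT 3.

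Complex II, succinate dehydrogenase, has 4 subunits. Sdha, which holds the flavin, stood at 10040, 10182 and 7084 in WT and 9452, 9354 and 8108 in Hdac2 cKO. Both libraries numbered 3 were low and the groups overlapped. The log2 fold change was -0.005 (SE 0.22), and -0.18 without WT 3, where the groups no longer overlapped. Sdhb, the iron-sulfur subunit, had -0.34 (SE 0.26), and -0.09 without WT 3. Of the membrane anchors, Sdhc stood at 3192, 4001 and 11523 in WT against 2539, 3002 and 4734 in Hdac2 cKO, and Sdhd at 3774, 3827 and 3152 against 3520, 4030 and 4385. WT 3 was thus the highest library for one anchor and the lowest for the other. The log2 fold changes were -0.68 (SE 0.50) for Sdhc and 0.15 (SE 0.19) for Sdhd, and -0.11 and 0.06 without WT 3.

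Complex III passes electrons through cytochrome b and the Rieske protein to cytochrome c. Its core proteins Uqcrc1 and Uqcrc2 had log2 fold changes of -0.17 (SE 0.18) and 0.26 (SE 0.41), and the Rieske protein Uqcrfs1 of -0.37 (SE 0.29). Without WT 3 the 3 values were -0.15, -0.22 and -0.06. Uqcrc2 stood at 3816, 3572 and 1359 in WT and 3544, 3593 and 2495 in Hdac2 cKO, so that both libraries numbered 3 lay below the other 4. Uqcrb, the ubiquinone-binding subunit, went the other way in WT 3, at 1873, 2726 and 5466 in WT and 1659, 1985 and 2205 in Hdac2 cKO. Its log2 fold change was -0.65 (SE 0.39), and -0.22 without WT 3. Uqcr10, the most abundant per kilobase (5858 ± 482), had a value of -0.06 (SE 0.19), and -0.08 without WT 3.

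In complex IV the ubiquitous isoforms were among the most abundant genes of all 85, and WT 3 moved them in opposite directions. Cox6a1 (ENSMUSG00000041697, mm10 chromosome 5, 115345642 to 115348981, minus strand) stood at 12805, 18063 and 51831 in WT and 11531, 13606 and 13273 in Hdac2 cKO. WT 3 was 3.90-fold the median of the other libraries. The log2 fold change was -0.84 (SE 0.48, adjusted p = 0.927 in limma) and -0.25 without WT 3. Cox7a2 stood at 4834, 4363 and 1853 in WT and 4475, 5268 and 3775 in Hdac2 cKO, with WT 3 lowest. Its log2 fold change was 0.40 (SE 0.38), and -0.04 without WT 3. Cox8a, at 10195, 10992 and 5026 in WT and 9682, 11441 and 6881 in Hdac2 cKO, had a value of 0.15 (SE 0.35), and -0.21 without WT 3. Both libraries numbered 3 were below the other 4.

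The muscle isoforms were read at a small share of their ubiquitous partners. Cox6a2 (ENSMUSG00000030785, mm10 chromosome 7, 128205435 to 128206387, minus strand) stood at 184.4, 64.0 and 24.5 in WT and 6.06, 29.5 and 0.70 in Hdac2 cKO. In reads these were 209, 43 and 24 against 6, 30 and 1. WT 1 was highest and Hdac2 cKO 3 lowest, and the groups overlapped at a single place, Hdac2 cKO 2 above WT 3. The log2 fold change was -3.24 (SE 1.22, 95% confidence interval -6.09 to -0.38), with limma unadjusted p = 0.0312 and adjusted p = 0.927. Without WT 3 it was -3.94, and the groups did not overlap. DESeq2 with the replicate number as a block was the only tool that called it (log2 fold change -3.61, adjusted p = 0.0309). That fit called 77 of all genes tested (0.418%), and it uses a pairing that the labels do not state. DESeq2 without the block did not call Cox6a2 (adjusted p = 0.993).

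Cox8b (ENSMUSG00000025488, mm10 chromosome 7, 140898945 to 140900446, minus strand) stood at 114, 52.1 and 0 in WT and 16.2, 43.2 and 0 in Hdac2 cKO. In reads these were 129, 35 and 0 against 16, 44 and 0. A count of 0 allows up to 3 reads, counting error only and if reads are independent, which was not tested. That is 3.07 normalised in WT 3 and 2.10 in Hdac2 cKO 3. Both libraries numbered 3 were at 0, and the groups overlapped. Without WT 3 the groups did not overlap. The log2 fold change was -1.0 (SE 2.11, 95% confidence interval -5.94 to 3.94), a fitted value that rests on the pseudocount in the libraries at 0. It was -3.10 without WT 3, 0.32 without WT 1 and 0.59 without Hdac2 cKO 3.

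Cox7a1 (ENSMUSG00000074218, mm10 chromosome 7, 30184144 to 30186078, plus strand) was read at 105, 219 and 147 in WT and 97.0, 185 and 113 in Hdac2 cKO. The groups overlapped over nearly their whole range, and WT 2 and Hdac2 cKO 2 were the highest libraries. The log2 fold change was -0.25 (SE 0.42, adjusted p = 0.931 in limma), and -0.26 without WT 3. Leaving out WT 3, Cox6a2 and Cox8b ranked the libraries alike, with WT 1 highest and Hdac2 cKO 3 lowest. Cox7a1 ranked them otherwise.

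**Figure D3:**
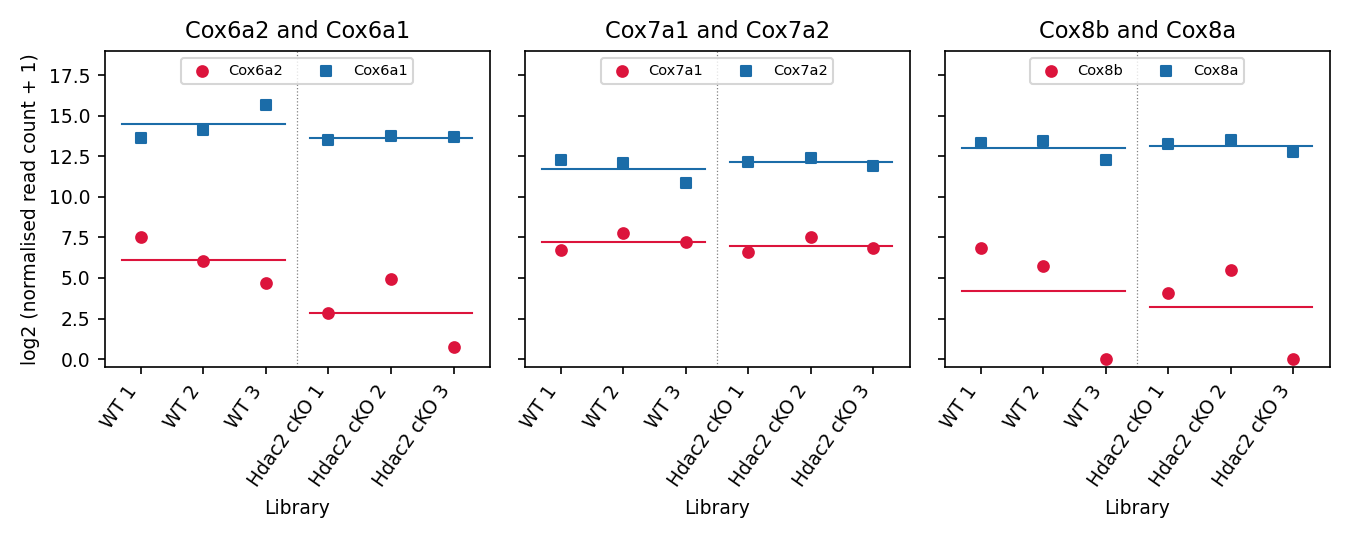
Each panel plots the log2 (normalised read count + 1) of a muscle isoform (circles) and its ubiquitous partner (squares) in the 6 libraries, with horizontal lines at the group means. Cox6a2 runs from 184.4 in WT 1 to 0.70 in Hdac2 cKO 3, Cox7a1 stays between 97.0 and 219, and Cox8b is at 0 in both libraries numbered 3.

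The ratio of a muscle isoform to its partner within a library did not separate the groups over all 6 libraries. As log2 ratios, Cox6a2 to Cox6a1 was -6.11, -8.12 and -10.99 in WT and -10.67, -8.80 and -12.93 in Hdac2 cKO. The difference was -2.40, with overlapping groups (exact two-sided permutation test p = 0.3, adjusted p = 0.45 over 3 pairs). It was -3.69 without WT 3, where the groups did not overlap, and -1.25 without WT 1. Cox7a1 to Cox7a2 differed by -0.64 (exact permutation p = 0.3, adjusted p = 0.45), by -0.22 without WT 3 and by -1.15 without WT 1. Cox8b to Cox8a differed by -1.15 (exact permutation p = 0.5, adjusted p = 0.5) and by 0.24 without Hdac2 cKO 3. Without WT 3 it differed by -2.88. The groups then did not overlap, with WT 2 at -7.69 close to Hdac2 cKO 2 at -8.01. With 3 libraries against 3 the smallest p such a test allows is 0.1. Within same-numbered libraries all 3 ratios were lower in Hdac2 cKO in 3 of 3 pairs, where the third pair of Cox8b rests on counts of 0 and the first pair of Cox7a1 was nearly equal. An exact sign-flip test of 3 pairs cannot go below p = 0.25, which each ratio reached.

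Skeletal muscle markers, summed, were lower in the Hdac2 cKO libraries. The summed level of 23 such genes was 19086, 11589 and 29474 in WT and 3881, 4937 and 6739 in Hdac2 cKO, and WT 3 owed most of its sum to Pvalb, which proprioceptive neurons also make (24563 in that library). The 6 defining muscle genes (Acta1, Ckm, Myh1, Myh2, Myh4 and Tnnt3) summed to 7714, 3185 and 1176 in WT and to 135, 891 and 62.9 in Hdac2 cKO. In Hdac2 cKO, too, most of the 23-gene sum thus came from other genes than these. That sum was highest in WT 3, where Cox6a2 was highest in WT 1. None of the 6 was at 0 in all libraries. The groups did not overlap in either sum, and Cox6a2 had nearly the same order of libraries as the defining genes. All 22 tested markers had log2 fold changes below 0 (median -3.39, and -3.65 without WT 3). Limma called none of the 22, and DESeq2 called 5 (smallest adjusted p = 1.2e-05), against 0.136% of all genes tested. Limma with array weights, which weights libraries by how well they fit, called 7 (over all genes it called 3.08%). Des, for example, stood at 468 ± 85.6 (SD, n = 3) in WT and 111 ± 32.1 (SD, n = 3) in Hdac2 cKO, and Ttn at 661 ± 293 and 79.8 ± 32.3. The part of muscle RNA in the values of Cox6a2 and Cox8b was not tested.

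Heart makes the same isoforms, and brown fat makes Cox7a1 and Cox8b. The summed cardiac and adipocyte markers overlapped between the groups. Of the 5 tested cardiac genes, 1 was lower without overlap (3.91% of all genes tested), and of the 9 tested adipocyte genes 0. Brown and white adipocyte genes summed to 567 to 2713 in WT and 364 to 1089 in Hdac2 cKO, and cardiac genes to 799 to 2585 and 730 to 1392. Limma and DESeq2 called none of them, and limma with array weights called 2 cardiac genes (3.08% of all genes tested). No defining gene of either list was at 0 in all libraries. Their part in the isoform values was not tested either.

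A list of 12 muscle-type genes of mitochondria and energy use, the 3 isoforms among them, had 12 of 12 log2 fold changes below 0, with a median of -1.28 (-2.60 without WT 3). Limma called none of the 12, DESeq2 called 2 (0.136% of all genes tested) and limma with array weights 5 (3.08% of all). Ckmt2, the muscle mitochondrial creatine kinase, stood at 158, 127 and 32.7 in WT and 18.2, 7.86 and 8.39 in Hdac2 cKO. The groups did not overlap (log2 fold change -2.91, SE 0.75, and -3.61 without WT 3), as for 6 of the 12 genes with Hdac2 cKO lower (3.91% of all genes tested). Ckm, the muscle creatine kinase of the cytosol, had a value of -4.37 (SE 1.12), and Atp2a1, the calcium pump of fast muscle, of -3.45 (SE 0.94). Without WT 3 these were -5.04 and -4.18. Slc25a4, the ADP/ATP carrier of heart and muscle, was abundant in the ganglia, and its value was -0.09 (SE 0.18), also without WT 3. The 8 ubiquitous counterparts had 2 values below 0 and a median of 0.21, and without WT 3 all 8 were below 0, with a median of -0.21.

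Other tissue-restricted isoforms of complex IV overlapped between the groups. Cox4i2, the lung and hypoxia form, stood at 34.4, 65.5 and 47.0 in WT and 49.5, 60.0 and 42.7 in Hdac2 cKO (log2 fold change 0.08, SE 0.46, and 0.08 without WT 3). Cox6b2, a testis form, stood at 81.2, 229 and 80.7 against 124, 161 and 151, and WT 2 was the highest library. Its value was 0.33 (SE 0.47), 0.08 without WT 3 and 0.83 without WT 2. Other such forms were not tested, namely Cox7b2, between 0 and 6.99 in all libraries, and Cox8c, at 0 in all 6. A duplicate row of Atp5o (ENSMUSG00000116933) was also at 0 in all 6.

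The remaining subunits of complex IV are mostly ubiquitous and were overlapping as well. Cox4i1, the ubiquitous form of Cox4, stood at 9758, 16261 and 20976 in WT and 8994, 10195 and 12403 in Hdac2 cKO (-0.52, SE 0.31, and -0.27 without WT 3). Cox6b1, at 7545, 7953 and 26981 against 6838, 8015 and 8259, had a value of -0.61 (SE 0.48), and -0.01 without WT 3. Its high WT mean was WT 3 alone. Cox7b had the highest log2 fold change of the complex, 0.44 (SE 0.48), and -0.16 without WT 3, where it stood at 1359 against 3896 to 5042 in the other libraries. Cox5a and Cox5b, which lie on the matrix side, had values of -0.20 (SE 0.31) and -0.37 (SE 0.22), and of -0.40 and -0.40 without WT 3. Cox5a stood at 4273 in WT 2 against 2057 to 2765 in the other 5 libraries, and its value was 0.13 without WT 2. The array weights gave WT 2 the largest weight (4.17, against 0.101 for WT 3), and that fit called Cox5a (log2 fold change -0.80, adjusted p = 0.0451) among 567 genes (3.08%).

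Complex V held the steadiest gene of those named and some of the least steady. Atp5a1, the alpha subunit of the catalytic head, stood at 23722, 24256 and 24355 in WT and 23656, 23561 and 25092 in Hdac2 cKO. WT 3 lay with the others, and the coefficient of variation over the other 5 libraries was 2.65%. The 95% confidence interval of the log2 fold change was -0.40 to 0.40. Atp5b, the catalytic beta subunit, stood at 36363, 36864 and 17976 in WT and 32823, 35295 and 26367 in Hdac2 cKO. Both libraries numbered 3 were low, and the log2 fold change was 0.11 (SE 0.32), or -0.23 without WT 3, where the groups did not overlap. Atp5c1, the gamma subunit of the central stalk, had a value of 0.15 (SE 0.36), and -0.25 without WT 3.

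The proton-carrying c subunit of complex V is encoded by 3 genes whose mature proteins are the same, and the 3 differed in how they departed in WT 3. Atp5g1 stood at 5391, 5616 and 3853 in WT and 5060, 5351 and 3820 in Hdac2 cKO. Atp5g2 stood at 2216, 2700 and 370 against 2005, 2434 and 1541, and Atp5g3 at 6390, 10572 and 26548 against 6342, 6671 and 13177. WT 3 was thus 0.167 of the median of the other libraries for Atp5g2 and 3.98-fold for Atp5g3, and Hdac2 cKO 3 lay on the same side in both. The log2 fold changes were -0.06 (SE 0.24), 0.59 (SE 0.71) and -0.56 (SE 0.54), and without WT 3 they were -0.23, -0.32 and 0.002. Atp5e, the epsilon subunit, had the lowest value of the complex, -0.77 (SE 0.50), and -0.15 without WT 3, where it stood at 13351 against 2730 to 4020 elsewhere.

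Hdac2 cKO 3 departed in the direction of WT 3. Taking each library's log2 difference from the mean of the 4 libraries numbered 1 or 2, the values of WT 3 and Hdac2 cKO 3 had Pearson's r of 0.61 across the 82 genes, and 59 of the 82 had the same sign. Across all 18410 genes r was 0.48 with 12794 of the same sign. These are correlations across genes of 2 libraries that share the mean they are set against, and genes are not independent replicates. Atp5mpl and Cox7a2l, named after their values were seen, were the genes with the widest upward departure. Atp5mpl, a small subunit of the ATP synthase, stood at 4467, 4669 and 24519 in WT and 4144, 5392 and 7807 in Hdac2 cKO. Cox7a2l, a supercomplex factor, stood at 4106, 4037 and 16456 against 3789, 4460 and 7712. Both libraries numbered 3 were the highest of their group. Without WT 3 the log2 fold changes were 0.29 and 0.32, where with it they were -0.52 and -0.36.

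**Figure D4:**
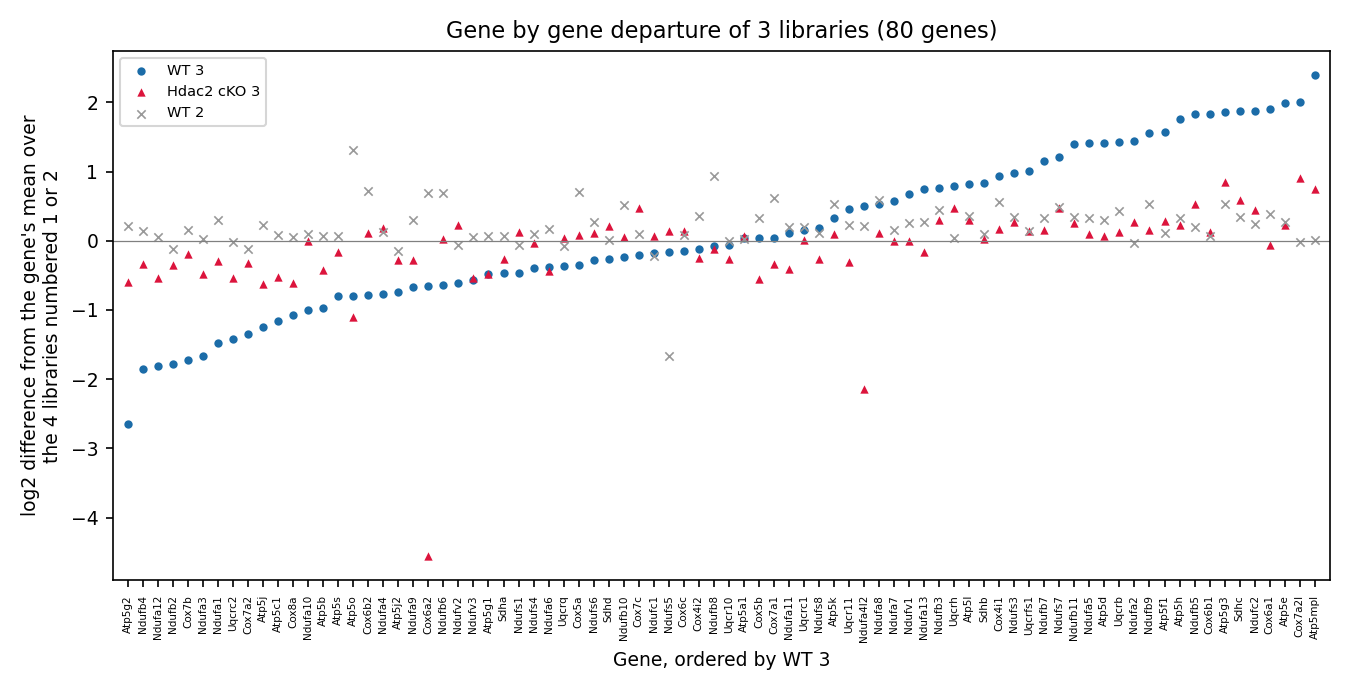
The log2 difference from the mean of the 4 libraries numbered 1 or 2 is plotted for WT 3 (circles), Hdac2 cKO 3 (triangles) and WT 2 (crosses), for 80 of the 82 genes, ordered by WT 3. Cox8b, at 0 in 2 libraries, is among those not shown. Hdac2 cKO 3 follows WT 3 with a smaller slope, and Atp5g2 and Atp5mpl mark the ends of the order.

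Levels per kilobase of exon compare genes with each other, here as means over the 6 libraries with their SD. Cox6a1 was highest (28753 ± 22310), and its SD came from WT 3. Then came Cox6b1 (15440), Cox8a (14598) and Cox4i1 (8450) of complex IV, and Atp5a1 (7690 ± 186) and Atp5b (7304) of complex V. The medians per complex were 1919 for complex I, 2219 for II, 3223 for III, 2651 for IV and 2624 for V. Sdhd led complex II (3072), a level close to the medians of complexes III to V. Exon length varied widely among the genes (360 to 8086 bases, median 1495), so such levels depend on the transcripts the annotation holds. No source used here says how reads shared with processed pseudogenes were counted. Of the 12 rows left out of the 85, 11 were processed pseudogenes, the highest of them at a mean of 121. The other row, Ndufb1-ps, was annotated as a non-coding RNA and was abundant, at a mean of 1416. Its log2 fold change was 0.10 (SE 0.27).

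Over all 6 libraries the lists of other genes of the pathway were mixed in direction. Limma, DESeq2 and limma with array weights called none of them. Of 49 tested assembly factors of the complexes, 28 were below 0 (median -0.10, and -0.06 without WT 3). The groups did not overlap for 1 with Hdac2 cKO lower (3.91% of all genes tested) and 1 with it higher (4.63% of all). Ndufaf3, which helps to assemble complex I, stood at 844, 1008 and 1109 in WT and 742, 824 and 583 in Hdac2 cKO, without overlap (log2 fold change -0.47, SE 0.23, and -0.38 without WT 3). Of 17 electron carrier, supercomplex and accessory genes, 12 were below 0 (median -0.11), and 15 without WT 3 (median -0.20). Over all genes tested 44.7% were below 0, and 51.4% without WT 3. Coq8a, a kinase-like protein of ubiquinone synthesis, stood at 721 ± 34.7 (SD, n = 3) in WT and 584 ± 39.4 (SD, n = 3) in Hdac2 cKO, a log2 fold change of -0.31 (SE 0.20, and -0.34 without WT 3). Of 28 genes of the tricarboxylic acid cycle and pyruvate entry, 13 were below 0 (median 0.03), and 22 without WT 3 (median -0.12). Without WT 3 the groups did not overlap for 9 of the 28 with Hdac2 cKO lower (9.63% of all genes tested). They did not overlap for 1 with Hdac2 cKO higher (9.22% of all). Mpc2, a subunit of the mitochondrial pyruvate carrier, had a value of -0.56 (SE 0.29), and -0.27 without WT 3.

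Among 25 regulators of mitochondrial biogenesis, 15 were above 0, with a median of 0.10 (0.02 without WT 3), and none passed limma's test. The groups did not overlap for 2 of the 25 with Hdac2 cKO higher (4.63% of all genes tested). They did not overlap for 1 with Hdac2 cKO lower (3.91% of all). Ppargc1b, a coactivator of respiratory genes, stood at 141, 93.8 and 101 in WT and 195, 158 and 513 in Hdac2 cKO. The groups did not overlap, and Hdac2 cKO 3 was far above the rest (log2 fold change 1.18, SE 0.49, limma adjusted p = 0.927). It was 0.67 without Hdac2 cKO 3 and 1.12 without WT 3. Nrf1, the factor whose motif matched in 23.5% of the promoters above, stood at 490, 448 and 359 against 617, 558 and 620, also without overlap (0.48, SE 0.23, and 0.35 without WT 3). Ppargc1a, the better known coactivator, overlapped (-0.18, SE 0.27, and 0.04 without WT 3), and so did the receptor gene Esrra (-0.72, SE 0.45, and -0.23 without WT 3).

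Among other ganglion cells, the summed markers of 1 type did not overlap between the groups. Myelinating Schwann cell genes summed to 244511 to 373794 in WT and 143131 to 231418 in Hdac2 cKO. Of its 10 genes, 9 were below 0 (median -0.69, and -0.73 without WT 3), and none was at 0 in all libraries. Limma called none of the 10, DESeq2 called 1 (adjusted p = 0.025) and limma with array weights 4. Over all genes tested DESeq2 called 0.136% and the array weights 3.08%. Satellite glia summed to 146182 to 359900 and 117988 to 154626, mural cells to 5555 to 12896 and 7817 to 11618, and macrophages to 2104 to 4463 and 2034 to 5250. Erythroid genes varied most, from 2696 to 51556 in WT and 1305 to 75549 in Hdac2 cKO. The summed levels of these 4 lists overlapped between the groups. Their part in the small differences of the respiratory genes was not tested. The 20 neuron genes had a median log2 fold change of 0.08 (0.07 without WT 3), with 10 below 0. Limma and DESeq2 called none of them, and limma with array weights called 4 (3.08% of all genes tested).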

How the data were processed

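Dorsal root ganglion RNA was read in 6 libraries (3 WT, 3 Hdac2 cKO). Sample titles gave the groups and the replicate numbers, and columns were matched to samples by name. HISAT2, SAMtools, featureCounts and DESeq2 were used by the authors on the mm10 build, per the submitters' processing notes. Their versions, the annotation and the strand setting are not stated, so reads of a gene cannot be told from those of an overlapping or antisense one. The signal values deposited by the authors were not whole: they were gene read counts divided by 1 size factor per library, and 100% of values gave whole reads within a tolerance of 0.01.

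Symbols, coordinates and exon lengths came from GENCODE M21 (GRCm38, the assembly of mm10), which held 54495 of 54532 identifiers, and promoters from RefSeq by symbol. The main test was limma 3.58.1 (R 4.3.3) on log2 (value + 1), with trend and robust variances, for the 18410 genes that reached 10 in 3 libraries or more. Tests were two-sided, with Benjamini-Hochberg adjustment over all genes tested and a threshold of 0.05. Recovered reads were tested with edgeR 4.0.16, DESeq2 1.42.0 and limma-voom. Other alternatives were the scaling, pseudocount and filter, a replicate block, length and GC corrections, array weights and leaving out libraries. On simulated data the median fold changes came back close to those put in, and limma called few of the changed genes.

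Genes and lists were chosen with earlier results of these data known. Named genes were the 3 isoform pairs, tissue-restricted isoforms, core subunits, the highest and lowest fold change and the highest level per kilobase of each complex, any gene called in an alternative, and up to 3 genes with the smallest p of each list. 1 gene that the rule names is not reported here. Genes outside this rule (Ndufs8, Ndufb8, Atp5o, Atp5mpl, Cox7a2l, Pvalb, Slc25a4, Ppargc1a, and the defining markers) were chosen after their values were seen or from the marker lists.

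Deviations from the group means correlated between same-numbered libraries by 0.40, 0.15 and 0.42. Pairing by number was used in the alternatives with a replicate block and in the counts and sign-flip tests of pairs. The main limma fit and the two-sided permutation test of the ratios compared the groups only. That pairing comes from the data, since the labels do not state it. WT 1 and Hdac2 cKO 2 also correlated, by 0.34, more than WT 2 and Hdac2 cKO 2. The correlations therefore do not establish a pairing by number.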

Additional observations from a re-analysis of the deposited data

How the results depend on the processing

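The median log2 fold change of the 82 genes lay between -0.29 and -0.05 over 24 alternatives, each within the spread between library medians of its main value (SD 0.138). It was below 0 in all of them. Genes called over all 18410 were 25 with DESeq2, 77 with DESeq2 and the replicate block, 567 with array weights and 5 without both libraries numbered 3. Of the 82 genes, DESeq2 with the block and array weights each called 1, Cox6a2 and Cox5a. Limma with the replicate block called 0 genes, and the median was -0.18. The paired ratios kept their differences, with exact sign-flip permutation p = 0.25, the smallest that 3 pairs allow. TMM scaling moved the median of all genes to 0.10 and that of the 82 genes to -0.14.

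Signs turned for genes near 0 and for some with larger main values, such as Atp5g2 (0.59), Cox7b (0.44) and Cox6b2 (0.33). Atp5a1 was 0.0605 with GC correction, 0.028 with length correction (both also with the block), 0.0473 with TMM scaling and 0.0007 by library totals. Sdha was 0.0434 with TMM scaling, and Uqcr10 0.0777 with length correction, with or without the block. With array weights, Cox8a was -0.0398, Cox4i2 -0.12, Cox6b2 -0.42, Cox7b -0.13, Ndufa4 -0.0951, Uqcrc2 -0.0159, Atp5b -0.10, Atp5c1 -0.11, Atp5g2 -0.20 and Uqcr10 0.0094. Without both libraries numbered 3, Cox8a was -0.0083, Cox7b -0.11, Ndufa4 -0.11, Sdhd -0.0129, Uqcrc2 -0.049, Atp5b -0.11, Atp5c1 -0.0948, Atp5g2 -0.15 and Uqcr10 0.0112.

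Leaving out each library in turn gave ranges that crossed 0 for Atp5a1 (-0.0303 to 0.0151), Atp5b (-0.23 to 0.29), Atp5c1 (-0.25 to 0.37), Atp5g1 (-0.23 to 0.0906), Atp5g2 (-0.32 to 1.11), Atp5g3 (-1.03 to 0.0019), Cox4i2 (-0.14 to 0.31), Cox5a (-0.40 to 0.13), Cox7a1 (-0.52 to 0.0237), Cox7a2 (-0.0407 to 0.65), Cox7b (-0.16 to 0.79), Cox8a (-0.21 to 0.35), Cox8b (-3.10 to 0.59), Ndufa4 (-0.0265 to 0.42), Sdha (-0.18 to 0.0857), Uqcr10 (-0.15 to 0.0291) and Uqcrc2 (-0.22 to 0.52). The log2 ratio of Cox8b to Cox8a ranged from -2.88 to 0.24. The causes were not tested. The counts of Cox6a2 and Cox8b were low in several libraries.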
